A study of Mus musculus with 2 samples.

Results

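Aminoacyl-tRNA synthetases are the enzymes that join each amino acid to its transfer RNA, the step that matches the genetic code to protein. Genes were taken by name: every gene of the deposited table whose symbol is a single capital letter followed by ars or ars2, with Eprs, Farsa and Farsb added. The rule found 37 of the 16218 genes in the table. Those whose symbol ends in 2, 17 genes, were treated as the mitochondrial enzymes and the other 20 as the cytosolic ones. The reference annotation gave all 37 the orthology of a tRNA synthetase, so the label held for each of them, and all 37 reached a mean of 1 CPM (counts per 1000000 counts of the library), the minimum for a gene to be called measured. The rule uses names and no expression value.

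The RNA came from mouse bone marrow-derived macrophages of strain C57BL/6J, in 1 library per genotype. The control (WT) library carried Lyz2-Cre, a Cre recombinase expressed from the lysozyme 2 promoter of myeloid cells. The triple knockout (TKO) library carried the same Lyz2-Cre together with mutations of 3 related microRNA clusters: mir-106a~363 and mir-106b~25 are each labelled -/-, and mir-17~92 is labelled flox/flox, to be cut out by Cre. Both genotypes were grown for 5 days with 10% fetal bovine serum and 10% L929 supernatant, which supplies macrophage growth factor, and both received 10 ng/ml lipopolysaccharide (LPS) for 3 h. No unstimulated library was analysed here, so the effect of LPS itself has no value. The number, age and sex of the mice behind each library are not given in the sources used here. Polyadenylated RNA was sequenced, and this measures messenger RNA and not mature microRNAs, so how far Cre removed mir-17~92 was not measured.

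Cytosolic synthetases charge the tRNAs used by ribosomes in the cytoplasm, and a separate nuclear-encoded set is imported into mitochondria, where it charges the tRNAs of the mitochondrial genome. The division is not complete: Gars and Kars each give rise to both forms, Eprs joins glutamate and proline activities in 1 protein, and mitochondria have no glutaminyl enzyme of their own but amidate a mischarged tRNA. Several cytosolic enzymes sit in a multi-synthetase complex held together by scaffold proteins. Uncharged tRNA activates the kinase encoded by Eif2ak4 (GCN2), which through the transcription factor ATF4 raises many cytosolic synthetase transcripts.

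The WT library held 10764519 rounded counts and the TKO library 10836855. The 37 synthetases took 20958 of the WT counts, or 0.195%, and 19870 of the TKO counts, or 0.183%. A ratio is the TKO CPM over the WT CPM with its exact 95% binomial interval (Clopper-Pearson), which covers counting error only. With 1 library per genotype there was no test between genotypes, and genotype cannot be told apart from any other difference between the cell cultures. All 10 macrophage markers were measured, with summed counts of 84975 in WT and 88204 in TKO. Among 8 fibroblast markers 7 were measured and none was at 0 counts: they summed to 4272 counts (0.0397% of the library) in the WT library and to 1676 (0.0155%) in the TKO library, a ratio of 0.390 (0.368 to 0.412). The collagen genes Col1a1 (2055 and 550 counts) and Col1a2 (1166 and 428) made up most of these sums, while the receptor genes Pdgfrb (478 and 510) and Pdgfra (32 and 30) had intervals that included 1. Neutrophil markers summed to 59 and 52 counts, with Ly6g at 0 in WT, the 2 T and NK cell markers present in the table to 85 and 58, and B cell markers to 15 and 11. Synthetases are made by every cell type, and the part of this marker difference in the values below was not tested; in bulk RNA, fewer cells of a type and less RNA per cell cannot be told apart.

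Levels between genes are given in FPKM (fragments per kilobase and per 1000000 fragments), which corrects for transcript length. Cytosolic synthetases ran from 10.53 FPKM (Yars) to 88.56 FPKM (Nars) in WT, with a median of 25.4 FPKM, and from 9.21 (Yars) to 86.41 FPKM (Nars) in TKO, with a median of 23.0 FPKM. Mitochondrial synthetases ran from 0.51 FPKM (Mars2) to 12.75 FPKM (Iars2) in WT, with a median of 2.90 FPKM, and from 0.50 (Pars2) to 12.10 FPKM (Iars2) in TKO, with a median of 2.03 FPKM. The classes barely overlapped: in each library 16 of the 17 mitochondrial enzymes lay below the lowest cytosolic one, and Iars2, which charges isoleucine, was the exception. Summed over FPKM, mitochondrial enzymes made up 8.28% of the synthetase level in WT and 7.67% in TKO.

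**Figure D1:**
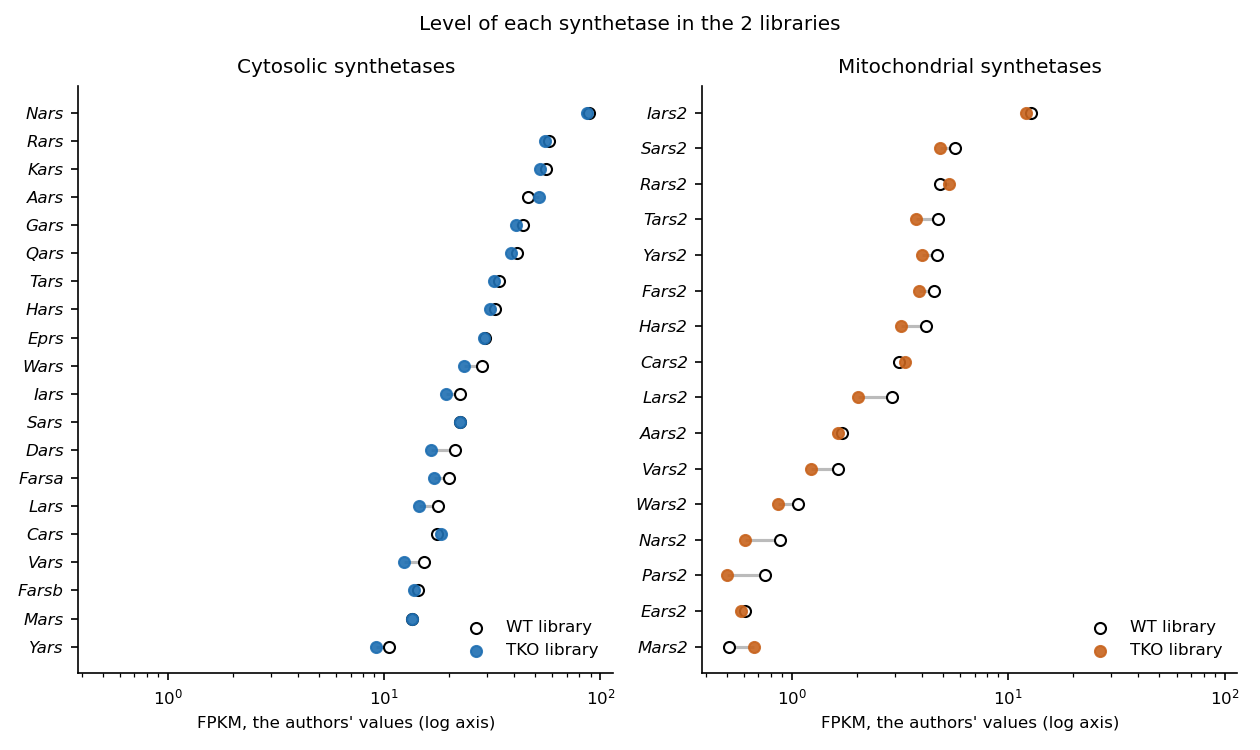
FPKM of 36 of the 37 synthetases in the WT and TKO libraries, on a logarithmic axis, 1 point per library and gene, with cytosolic and mitochondrial enzymes set apart. Nars was the highest in both libraries at 88.56 and 86.41 FPKM, and 16 of 17 mitochondrial enzymes lay below every cytosolic one.

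Nars, the asparaginyl enzyme, stood above the others in both libraries. It was followed by Rars (arginine; 57.77 FPKM in WT, 55.63 in TKO) and Kars (lysine; 55.79 and 52.29 FPKM). Aars (alanine) stood at 46.18 FPKM in WT and 52.11 in TKO, and Gars (glycine) at 43.71 and 40.58 FPKM. Rars and Kars serve basic amino acids, and the order of these 5 enzymes was the same in both libraries. In TKO, Vars (valine) stood at 12.34 FPKM, below all cytosolic enzymes but Yars. At the low end of the cytosolic set in WT were Yars (tyrosine, 10.53 FPKM in WT and 9.21 in TKO), Mars (methionine, 13.52 and 13.44 FPKM) and Farsb, the beta subunit of the phenylalanyl enzyme (14.35 and 13.71 FPKM). Farsa, the alpha subunit, stood at 19.89 FPKM in WT and 17.01 in TKO, so the subunits of this enzyme were at unlike levels in both libraries. Neighbours in this order with like values, such as Rars and Kars, cannot be ranked without replicates.

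For each amino acid with both enzymes the cytosolic transcript was the higher in 17 of 17 pairs, in both libraries. The cytosolic level was a median of 8.41 times the mitochondrial one in WT and 10.1 times in TKO. The narrowest gap was that of isoleucine, where Iars was 1.76 times Iars2 in WT and 1.60 times in TKO. The widest was that of asparagine, where Nars was 101 times Nars2 in WT and 142 times in TKO. Nars2 stood at 0.88 FPKM in WT and 0.61 in TKO, from 36 and 25 counts, so the upper end of that span rests on few counts. The pairs are not all independent, since Ears2 (glutamate) and Pars2 (proline) were both set against Eprs, and Fars2 was set against Farsa and Farsb together.

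Most cytosolic synthetases had slightly lower values in the TKO library, and none reached a 1.5-fold difference in either direction. The median log2 ratio of TKO to WT, with 0.5 CPM added to each, was −0.09 over the 20 genes, with 17 below 0 and 3 above, beside −0.04 over all 11662 measured genes. Counting error was exceeded by 6 cytosolic genes that fell (Dars, Vars, Lars, Wars, Farsa and Iars) and by 1 that rose (Aars). With TMM or DESeq2 scaling Farsa was no longer among them, and 14 or 15 of the 20 genes were below 0. Among all measured genes 20.2% were lower and 14.1% higher by the same rule, and 5.6% were lower and 2.98% higher by 1.5-fold with an interval excluding 1. Among the 4411 genes in the CPM range of the cytosolic enzymes the shares were 24.4% lower and 19.6% higher beyond counting error. The 6 of 20 that fell is thus near the share of genes at large, and the 1 of 20 that rose is below it.

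Dars, the aspartyl enzyme and a member of the multi-synthetase complex, had 515 counts in WT and 400 in TKO, a ratio of 0.772 (0.675 to 0.881), and was the most changed cytosolic synthetase in these libraries. Vars, the valyl enzyme, had 699 and 569 counts (0.809, 0.723 to 0.905), and Lars, the leucyl enzyme, 739 and 608 (0.817, 0.733 to 0.911). Lars, like Dars, is part of the multi-synthetase complex, and Vars is not. Iars, the isoleucyl enzyme, had 1070 counts in WT and 930 in TKO (0.863, 0.790 to 0.944). Wars, the tryptophanyl enzyme, had 822 and 690 counts (0.834, 0.752 to 0.924). Wars is known as a target of interferon gamma. The 14 interferon-response genes listed beside it had a median log2 ratio of 0.01 and a range from −0.57 to 0.45. Of the 14, 7 were higher and 6 lower beyond counting error, beside 14.1% and 20.2% of all measured genes. Any link between these genes and the Wars value was not tested. Farsa had 394 and 339 counts (0.855, 0.737 to 0.991), so that its interval ended close to 1, while its partner Farsb had 323 and 311 counts (0.956, 0.816 to 1.12).

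Aars rose, from 1866 counts in WT to 2119 in TKO, a ratio of 1.13 with a lower bound of 1.06. It is the second most counted synthetase after Nars, so its interval is narrow, and it was the only one of the 37 that was higher beyond counting error. The other 13 cytosolic enzymes had intervals that included 1. Yars, at 327 counts in WT and 288 in TKO, had the lowest log2 ratio of them (−0.19). Gars had 1126 and 1052 counts (−0.11), Qars (glutamine) 1116 and 1049 (−0.10), Kars 1247 and 1178 (−0.09) and Tars (threonine) 967 and 918 (−0.08). These values, from Yars to Tars, lie below the median of all measured genes (−0.04). Hars (histidine) had 699 and 668 counts (−0.07) and Rars 1330 and 1289 (−0.05). Nars had 2545 and 2499 counts (−0.04) and Eprs 1546 and 1529 (−0.03). Mars was level, with 432 counts in each library (−0.01); Sars (serine) had 883 and 895 (0.01), and Cars (cysteine) had 576 and 611 (0.07). The summed cytosolic counts were 19222 in WT and 18374 in TKO, a ratio of 0.950 (0.930 to 0.969); scaled by TMM in place of the library total the ratio was 0.982 (0.962 to 1.00), with an interval that reached 1.

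**Figure D2:**
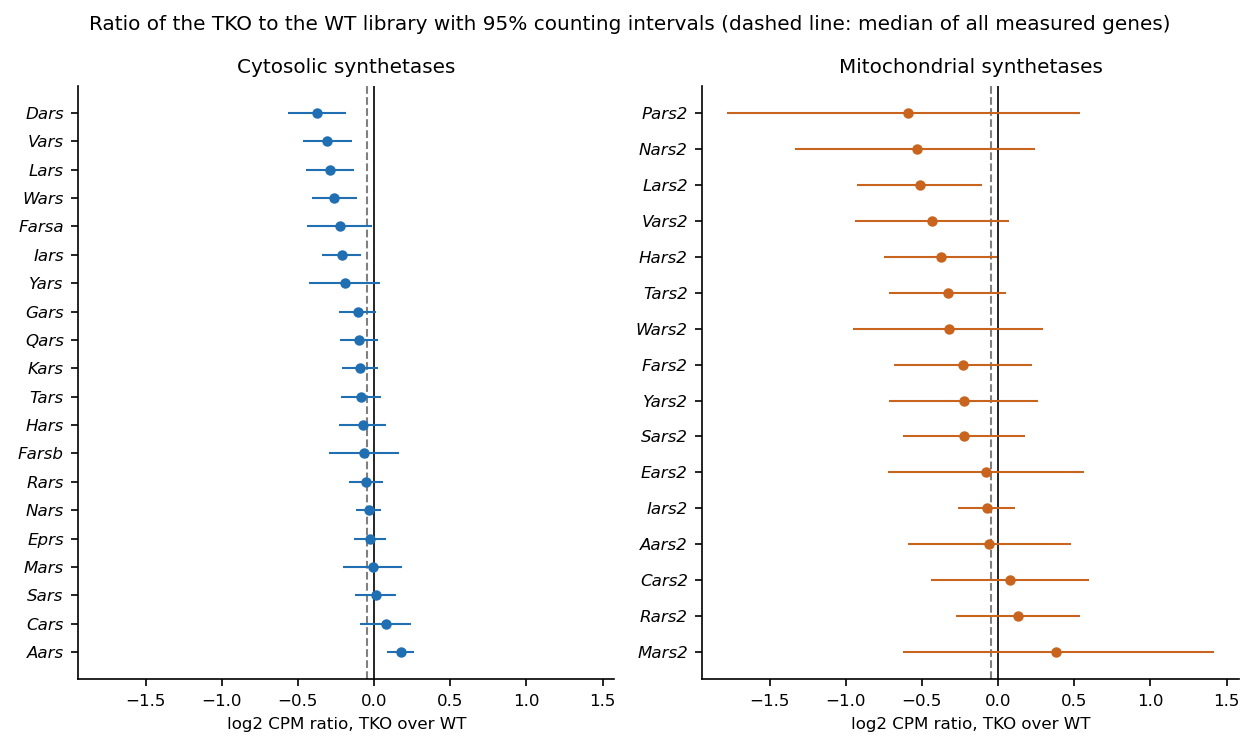
log2 ratio of TKO CPM to WT CPM, with no pseudocount, for 20 cytosolic and 16 mitochondrial synthetases, with 95% counting intervals as bars and the median of all measured genes as a dashed line. Aars is the only gene drawn whose interval lies wholly above 0; 1 mitochondrial gene is not drawn.

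Mitochondrial synthetases were lower in the TKO library by more, as a set and in their sum, but their counts were small. The median log2 ratio was −0.22 over the 17 genes, with 14 below 0 and 3 above, and the summed counts were 1736 in WT and 1496 in TKO, a ratio of 0.856 (0.798 to 0.918). Beyond counting error 3 of the 17 fell, among them Lars2 and Hars2, Hars2 only when scaled by the library total and not by TMM or DESeq2 factors, and 1 of the 17 was lower by 1.5-fold with an interval excluding 1. None rose. Among the 7153 genes in the CPM range of the mitochondrial enzymes 16.9% were lower beyond counting error and 7.52% by 1.5-fold, so 3 of 17 and 1 of 17 are near the shares of genes at large. Of the same 7153 genes 8.18% were higher beyond counting error and 3.63% by 1.5-fold. In that range 60.8% of genes had a log2 ratio below 0 and the median was −0.07, compared with 54.3% and −0.02 in the cytosolic range.

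In the authors' deposited table, an adjusted value of at most 0.05 is given to 8 synthetases, of which Aars is the 1 that is higher, and to 18.5% of all genes. That value compares the 2 libraries and not replicated genotypes. Deposited counts were not all whole for 4 synthetases, among them Ears2, Lars2 and Wars2, which marks reads divided between features by estimation.

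Lars2, the mitochondrial leucyl enzyme, had 122 counts in WT and 86 in TKO (0.700, 0.525 to 0.930). Hars2, the histidyl one, had 142 and 110 counts (0.769, 0.594 to 0.994). Hars and Hars2 lie head to head and their annotated spans overlap at the starts, and Hars itself was nearly level. For leucine both the cytosolic and the mitochondrial enzyme fell beyond counting error. Vars2 followed Vars in direction, with 79 counts in WT and 59 in TKO (log2 −0.40), but its interval included 1. Both lie in the major histocompatibility region of chromosome 17, where the 11 measured genes within 200 kb of Vars2 had a median log2 ratio of −0.41 and a range from −0.74 to 5.89. The highest of those 11 was H2-Q10, with 1 count in WT and 376 in TKO. It was not alone: H2-L had 15 counts in WT and 7378 in TKO, H2-Q2 6 and 692, and H2-T9 0 and 367. H2 genes that went the other way were not counted, and the reason for these values was not tested. Around Vars, 26 measured neighbours had a median of 0.03 and a range from −0.71 to 3.00.

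The mitochondrial enzymes described next were within counting error of equality. Nars2 (36 and 25 counts, log2 −0.45) and Pars2 (18 and 12, −0.43) had ratios near that of Lars2 on far fewer counts. Tars2 had 130 counts in WT and 104 in TKO (−0.32) and Wars2 51 and 41 (−0.29). These 4 show how wide the intervals are at this depth: that of Pars2 ran from 3.44-fold lower to 1.45-fold higher in TKO. Fars2 had 92 and 79 counts (−0.22), Sars2 116 and 100 (−0.21) and Yars2 79 and 68 (−0.21). Iars2 had 489 and 467 counts (−0.08), which leaves its interval about as narrow as those of the cytosolic enzymes. Ears2 had 44 and 42 counts (−0.07) and Aars2 62 and 60 (−0.05). The 3 with higher values in TKO were Cars2 (63 and 67 counts, 0.07), Rars2 (98 and 108, 0.12) and Mars2 (16 and 21, 0.30), none of them beyond counting error.

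Set against each other within the same libraries, the mitochondrial sum was lower relative to the cytosolic sum in TKO by a ratio of ratios of 0.902 (0.838 to 0.969), a value that scaling of the libraries cannot alter. The difference between the medians was −0.13 on the log2 scale. Level moves with this difference, as genes of the mitochondrial range were lower than those of the cytosolic range over the whole table, and its part was not tested. By amino acid, the mitochondrial log2 ratio lay below that of its cytosolic partner in 14 of 17 pairs, the exceptions being Iars2, Mars2 and Rars2. Cars2 and Cars were level (0.07 each), and their ratio of ratios without the added 0.5 CPM was 1.00 (0.686 to 1.47). For leucine, Lars2 against Lars had a ratio of ratios of 0.857 with an interval that included 1 (0.629 to 1.16). Histidine gave 0.811 (0.612 to 1.07) and isoleucine 1.10 (0.939 to 1.29). These intervals are not adjusted for the number of pairs.

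**Figure D3:**
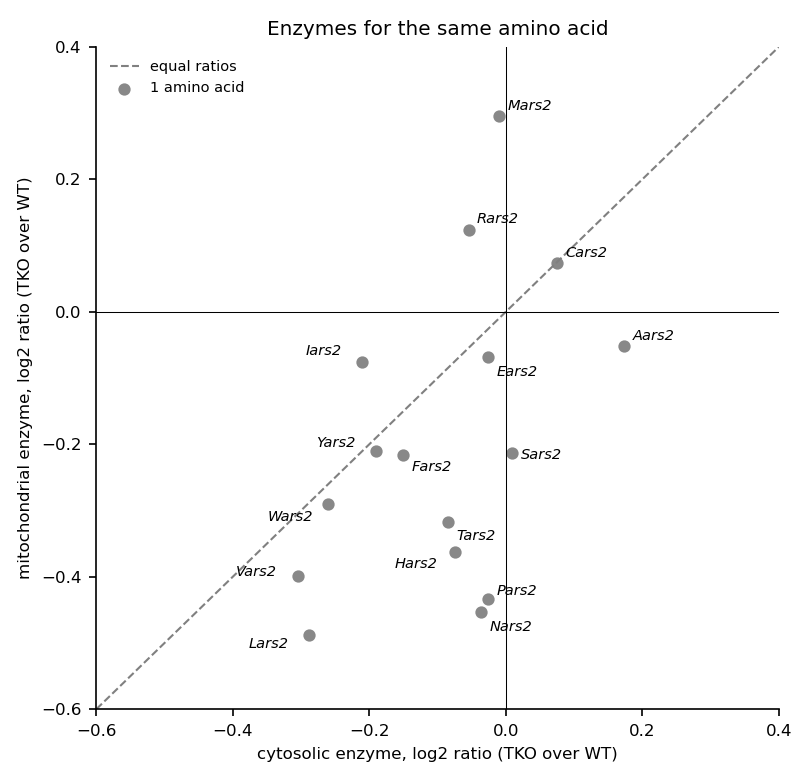
log2 ratio of TKO to WT for the mitochondrial enzyme against that of the cytosolic enzyme of the same amino acid, 16 pairs, 1 point each, with the dashed diagonal marking equal ratios. Iars2, Mars2 and Rars2 lie above the diagonal and the other points on or below it; 1 pair is not drawn.

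The multi-synthetase complex holds 8 of the cytosolic genes (Dars, Eprs, Iars, Kars, Lars, Mars, Qars and Rars). All 8 were below 0 (6 with TMM or DESeq2 scaling), with a median log2 ratio of −0.09. Dars, Lars and Iars fell beyond counting error, as did 20.2% of all measured genes. The 8 genes had summed counts of 7995 in WT and 7415 in TKO, a ratio of 0.921 (0.892 to 0.951). The 12 cytosolic genes outside the complex summed to 11227 and 10959, a ratio of 0.970 (0.944 to 0.996). With TMM scaling these sums gave 0.952 (0.923 to 0.983) and 1.00 (0.976 to 1.03), so the second difference rests on the scaling. The scaffold proteins of the complex also had lower values: Aimp1 had 286 and 275 counts, Aimp2 158 and 129, and Eef1e1 190 and 159. Each scaffold's own interval included 1, and their sum gave 0.882 (0.786 to 0.990), or 0.912 (0.813 to 1.02) with TMM scaling.

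Synthetases also fall into 2 structural classes by the fold of the catalytic domain, and Eprs, which holds 1 domain of each, was put in neither. In the cytosol the 9 class I genes had a median log2 ratio of −0.19 and a summed ratio of 0.903 (0.873 to 0.934), and the 10 class II genes −0.08 and 0.976 (0.950 to 1.00). In mitochondria the order was the other way: the 9 class I genes had a median of −0.08 and a summed ratio of 0.915 (0.837 to 1.00), and the 8 class II genes, all below 0, had −0.34 and 0.768 (0.684 to 0.860). Those 8 include the 1 mitochondrial gene lower by 1.5-fold, and their sum was not recomputed without it. Iars2 gave 489 of the 1041 WT counts and 467 of the 959 TKO counts of mitochondrial class I. That class I sum was not recomputed without Iars2. Over both compartments the medians were −0.14 for class I and −0.16 for class II. Scaling of the libraries shifts both classes alike, so TMM and DESeq2 factors are no check on the order of the classes.

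Other genes of tRNA charging had lower values in TKO too, each on few counts. Of 10 such genes 9 were below 0, with a median log2 ratio of −0.40, and none passed counting error by itself. Their summed counts were 720 in WT and 574 in TKO, a ratio of 0.792 (0.708 to 0.885). The subunits of the mitochondrial amidotransferase that makes glutaminyl-tRNA were all among them: Qrsl1 had 56 and 41 counts, Gatb 72 and 61, and Gatc 85 and 61. Tarsl2, a second threonyl enzyme, had 38 and 28, and Sepsecs, the last enzyme of selenocysteinyl-tRNA synthesis, 71 and 49. The genes in these examples were named after their values were seen.

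Genes that make, modify and export tRNA lay on both sides of 0. The 18 measured had a median of −0.03, with 10 below 0 and 8 above, and 4 fell beyond counting error while none rose; with TMM scaling the median was 0.02, 3 fell and 2 rose. Rpp30, a protein subunit of ribonuclease P, was the 1 that was lower by 1.5-fold, with 173 counts in WT and 114 in TKO (0.655, 0.512 to 0.834). Cytosolic elongation and termination factors, 8 genes, had a median of −0.09, beside −0.09 for the cytosolic synthetases, with 5 lower and 1 higher beyond counting error (4 and 2 with TMM or DESeq2 scaling). The 10 mitochondrial translation factors had a median of −0.11, and 1 of them was lower beyond counting error, or 0 with TMM or DESeq2 scaling. By library totals, 20.2% of all measured genes were lower and 14.1% higher beyond counting error, and 5.6% were lower by 1.5-fold. The elongation and termination factors had 879 to 69072 counts in WT, and at such counts small differences exceed counting error.

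**Figure D4:**
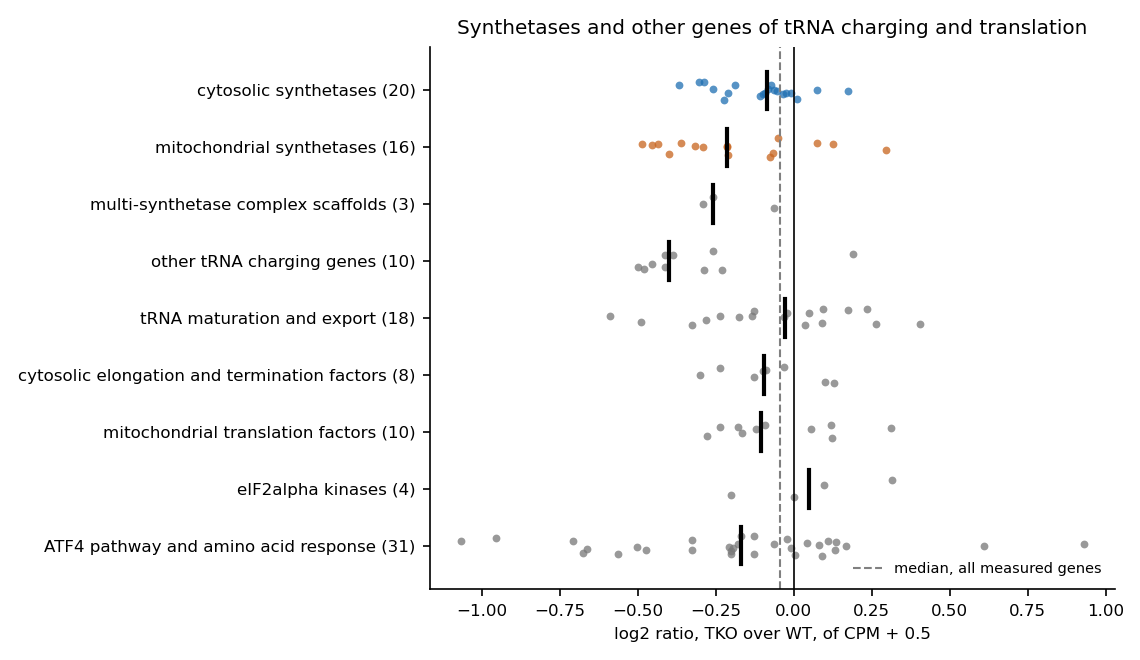
log2 ratio of TKO to WT for each measured gene of the synthetase classes and the companion lists, 1 point per gene (1 mitochondrial gene is not drawn) with the median of all members as a bar and the all-gene median as a dashed line. The median is −0.09 for cytosolic and −0.22 for mitochondrial synthetases, and −0.40 for the other tRNA charging genes.

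The sensing arm of the pathway was mixed. Of the 4 kinases that phosphorylate eIF2alpha, Eif2ak4, which binds uncharged tRNA, had 107 counts in WT and 93 in TKO, with an interval that included 1. Eif2ak3 (PERK), which responds to stress of the endoplasmic reticulum, rose from 181 to 228 counts, a log2 ratio of 0.31. Eif2ak2 (PKR), the kinase of double-stranded RNA, rose from 3686 to 3968 (1.07, 1.02 to 1.12), and Eif2ak1 was level at 905 and 911. Atf4 itself fell slightly, from 1962 to 1808 counts (0.915, 0.858 to 0.976), though not beyond counting error with TMM or DESeq2 scaling.

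The ATF4 and amino acid response list had 31 measured genes of 38 and a median log2 ratio of −0.17. Of the 31, 5 were higher and 10 lower beyond counting error, beside 14.1% and 20.2% of all measured genes. With TMM or DESeq2 scaling the list had a median of −0.12 or −0.14, with 6 genes higher and 7 lower. Its genes thus moved in both directions under each scaling. Ddit3 (CHOP), a transcription factor of the stress response, rose from 94 counts in WT to 185 in TKO (1.95, 1.52 to 2.53). Ddit4, an inhibitor of mTORC1 signalling, fell from 35 to 14 counts, Slc1a4, a transporter of neutral amino acids, from 32 to 14, and Psat1, an enzyme of serine synthesis, from 451 to 282. Ppp1r15a (GADD34), which directs the phosphatase of eIF2alpha, was the other gene higher by 1.5-fold, with 1245 and 1914 counts (1.53, 1.42 to 1.64); it was named after its values were seen. Asns, asparagine synthetase, had 426 and 482 counts and an interval that included 1 (0.985 to 1.28), but not with TMM or DESeq2 scaling, where it was higher. The synthetase gene Mars overlaps Ddit3 in the annotation: Mars was level while Ddit3 was higher. Aars, the 1 synthetase that rose, overlaps Ddx19b, which had 261 counts in WT and 274 in TKO (1.04, 0.877 to 1.24). Iars2 overlaps Rab3gap2 (555 and 502 counts) and Rars2 overlaps Orc3 (361 and 346), and the sources used here do not say whether reads were assigned by strand.

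The core of the C/EBP-ATF response element, bound by ATF4 with a C/EBP partner, was searched as TGATGNAA on both strands in promoter windows of 300 bases, 250 before to 50 after the start, from RefSeq (GRCm38.p6). A window was found for 27 of the 37 synthetases. The core occurred in 5 of 13 cytosolic enzymes, or 38.5%, and in 0 of 14 mitochondrial ones, beside 2.90% of the 9352 measured genes with a window and 3.97% of all 32851 windows. The 5 genes are shown because the match was found in them and in no mitochondrial window, with 30 bases around 1 match of each, 5′ to 3′ on the gene's strand, and capitals marking the match; TTGCATCA and TTTCATCA are the core read on the opposite strand.
Aars (chr8:111033840-111033869, plus strand): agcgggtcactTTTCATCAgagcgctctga
Gars (chr6:55037960-55037989, plus strand): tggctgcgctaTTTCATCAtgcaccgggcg
Iars (chr13:49682126-49682155, plus strand): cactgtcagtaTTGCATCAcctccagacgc
Tars (chr15:11399655-11399684, minus strand): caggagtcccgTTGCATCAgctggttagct
Yars (chr4:129189895-129189924, plus strand): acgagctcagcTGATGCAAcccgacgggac
The matches shown stood at 9 from the annotated start in Aars, −30 in Gars, 7 in Iars, −15 in Tars and 3 in Yars, counted to the first base of the match. In Aars and Yars that start lies inside the annotated span of the gene, which begins further upstream. These genes did not move as a group. Aars rose, Iars fell, and Gars, Tars and Yars were within counting error. Their median log2 ratio was −0.11, and that of the cytosolic genes with a window and no match was −0.08.

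The E-box CACGTG, a palindrome bound by MYC and related factors, occurred in 4 of the 13 cytosolic windows (Aars, Farsb, Iars and Tars, or 30.8%) and 1 of the 14 mitochondrial ones (Ears2), beside 11.8% of measured genes with a window. Aars, Iars and Tars held both motifs at separate positions. Neither motif search says whether a factor was bound.

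The microRNAs of the 3 clusters targeted in TKO fall into 4 families by their seed, bases 2 to 8 of the mature strand, through which a microRNA pairs with its targets. The 13 mature strands searched for were all found in RefSeq (GRCm38.p6), and 1 of each family is shown, with its seed in capitals, since the match searched for is their reverse complement, in capitals in the sites further on.
miR-17-5p (chr14:115043684-115043706, plus strand): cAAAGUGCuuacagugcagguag
miR-18a-5p (chr14:115043867-115043889, plus strand): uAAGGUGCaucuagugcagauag
miR-19a-3p (chr14:115044048-115044070, plus strand): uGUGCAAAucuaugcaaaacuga
miR-92a-3p (chr14:115044476-115044496, plus strand): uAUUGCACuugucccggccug
Matches to these seeds (the reverse complement of each, 7 bases, sense strand only) were searched in the longest 3′ untranslated region of each protein-coding gene in GENCODE M21 (GRCm38). At least 1 family matched in 8 of 37 synthetases, or 21.6%, compared with 34.2% of 11149 measured genes. The median region was 303.5 bases in cytosolic synthetases, 986 in mitochondrial ones and 1221 over the measured genes, and the part of length in these shares was not tested. Cytosolic genes with a match were Aars, Nars and Tars, and mitochondrial ones were Mars2, Nars2, Tars2, Vars2 and Wars2. RefSeq ends Tars before its matches, which therefore rest on the longer GENCODE transcript.

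The largest family, that of miR-17-5p, matched 3 synthetases, all mitochondrial, or 8.11% of the 37 beside 14.9% of measured genes. These sites are shown because they are the ones that pair by seed with the most microRNAs of the targeted clusters, and that of Aars because it is the gene that rose; each has 30 bases in 5′ to 3′ order and the match in capitals.
Mars2 (chr1:55241438-55241467, plus strand): ataaaactgattagGCACTTTacaaattgg
Tars2 (chr3:95744155-95744184, minus strand): acctggttttctaaGCACTTTacattccat
Wars2 (chr3:99217154-99217183, plus strand): tttactgtgcaggtGCACTTTgtctgtgtt
Aars (chr8:111055548-111055577, plus strand): ataaaaaggaccatGTGCAATacttggtga
The Aars letters match the seed of miR-92a-3p, miR-25-3p and miR-363-3p. RefSeq ends Mars2 before its site, which therefore rests on the longer GENCODE transcript, and whether the macrophages used that end was not tested. The RefSeq span of Aars ends within the 30 bases shown, just after the match. Whether the Tars2 and Wars2 sites lie in RefSeq untranslated regions was not checked. Aars rose, while Tars2 and Wars2 had lower values and Mars2 a higher one in TKO, none of those 3 beyond counting error. The 8 synthetases with a match had a median log2 ratio of −0.19 and the 29 without one −0.11, whereas among all measured genes those with a match had −0.01 and those without −0.06.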

How the data were processed

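RNA sequencing of 1 WT and 1 TKO library was used. Per the submitters' processing notes the tools were Bowtie2 2.2.5, HISAT2 2.0.4 and RSEM 1.2.12 on mm10, with no role stated. Annotation and strand setting are not given in the sources used here. Estimated counts per gene were deposited, not all whole (79.2% whole in WT, 79.4% in TKO). The authors also deposited FPKM values, a log2 ratio, a p-value and an adjusted value that reaches 1.04 and was therefore treated as a score. The 1 row without a symbol was left out (9.29e-06% of WT and 9.23e-06% of TKO counts).

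Estimated counts were rounded and divided by the library totals. A gene counted as measured at a mean CPM of 1 or more; log2 ratios used a pseudocount of 0.5 CPM, and intervals were exact binomial. Calls needed an interval excluding 1, and for fold calls 1.5-fold. The scripts (Python 3.11.15, scipy 1.17.1) were tested on simulated data. Alternatives were TMM (edgeR 4.0.16) and DESeq2 1.42.0 scaling, unrounded counts, FPKM, pseudocounts of 0.1 and 1, other minimums, folds and intervals, and omitted members; no count test was run, as each group has 1 library. Every synthetase was named except 1, which is in the sums, medians and counts but is not reported here by itself; on companion lists, up to 4 genes past 1.5-fold, with the scaffolds, the eIF2alpha kinases, Atf4 and Asns. Members and lists were chosen with earlier results of these data known. Untranslated regions were limited to protein-coding transcripts after first results were seen.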

Additional observations from a re-analysis of the deposited data

How the results depend on the processing

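Of 90 values recomputed over 13 results, 83 moved by less than the spread or interval set for them. Some could not move, such as those with no abundance filter, since all 37 synthetases were measured. The cytosolic median was −0.04 with TMM scaling and −0.05 with DESeq2 size factors, against −0.09. The mitochondrial median was −0.17 and −0.18, against −0.22. The half-widths given at the end of this paragraph exceed these medians, so a move within them says little about the medians. The summed cytosolic ratio was 0.982 with TMM scaling and 0.973 with DESeq2 size factors, against 0.950. Without Iars2, the most abundant mitochondrial member, the summed mitochondrial ratio was 0.820 (0.754 to 0.891), against 0.856. At the lower fold threshold, 1 cytosolic and 3 mitochondrial synthetases were called lower, against 0 and 1 at 1.5-fold. With a mean of at least 10 CPM the mitochondrial count was 0 for 1.5-fold lower and 1 for lower beyond counting error, and with a 99% interval the latter was 1, against 3. Under library totals, TMM, DESeq2 size factors and FPKM the median of all measured genes was −0.04, 0.00, −0.01 and −0.04, and 31, 28, 29 and 31 of the 37 synthetases were below 0. Of the 90, 3 that leave out 1 mitochondrial gene were added after seeing the data. No paired analysis was possible because each genotype has 1 library. For the members whose log2 ratio lies at the median, the half-width of the counting interval is 0.12 on the log2 scale for cytosolic and 0.45 for mitochondrial enzymes; genes with more counts have narrower intervals.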
